A study of Rattus norvegicus with 24 samples.

Results

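miR-192, miR-194 and miR-215 are small regulatory RNAs made from gene pairs that are best known from epithelial tissues. All array features named rno-miR-192, rno-miR-194 or rno-miR-215, with or without an arm suffix, were taken, which gave 5 members (rno-miR-192-5p, rno-miR-192-3p, rno-miR-194-5p, rno-miR-194-3p and rno-miR-215) beside 753 other rat miRs on the array. The prefix rno, for rat, is left out from here on. They were measured on 24 one-colour arrays of INS1 cells, an insulin-producing rat insulinoma line that stands in for the β-cell of the pancreas. The cells were cultured for 48 h and then received nothing (Ctrl), the proinflammatory cytokines IL-1β (150 pg/ml) and IFN-γ (0.1 ng/ml) (Cyt), 125 nM Givinostat (Giv_Ctrl), or Givinostat given 1 h ahead of the same cytokines (Giv_Cyt). Givinostat is an inhibitor of lysine deacetylases. RNA was taken after 6 h or 24 h, with 3 arrays for each of the 8 groups. All groups came from the same cell line, and the 3 arrays of a group are called technical replicates in the series' design text but replicates elsewhere, so p-values measure only the spread between these arrays.

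A miR binds messenger RNAs mainly through its seed, the bases near its 5′ end, and lowers their stability or translation. In mammals miR-192 and miR-194 are processed from 1 shared primary transcript and are abundant in liver, gut and kidney, where hepatocyte nuclear factors are among their known activators. miR-215 is made together with another copy of miR-194 at a different locus, and both loci are known targets of the stress-responsive factor p53. The question put to the data here was whether the levels of these miRs in INS1 cells differed with cytokines, with Givinostat or with time.

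The mature sequences are shown to make visible which members can act through the same seed and which of them the array can tell apart. They were taken from RefSeq (GRCr8), which held all 5, and run 5′ to 3′ with the seed (bases 2 to 8) in capitals:
miR-192-5p: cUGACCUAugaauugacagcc
miR-215: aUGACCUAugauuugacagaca
miR-194-5p: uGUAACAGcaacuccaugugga
miR-192-3p: cUGCCAGUuccauaggucacag
miR-194-3p: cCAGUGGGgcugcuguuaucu
miR-192-5p and miR-215 carried the same seed and were the same at 18 of 21 positions. Counted from the 5′ end of miR-192-5p, they differed by C1A, A12U and C20A, with the base of miR-192-5p first. No other miR of the 685 on the array that had a RefSeq sequence shared this seed. The seed of miR-194-5p was found in none of the others.

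Each member was read by a pair of probes, printed in 8 spots each, that are complementary to the 3′ part of the miR. For the members whose sequences are close, the longer probe is given with capitals at the bases that do not pair with the other member:
miR-192-5p probe: gGctgtcaaTtcataggtc
miR-215 probe: TgTctgtcaaAtcataggt
The probe of miR-192-5p held 2 bases that do not pair with miR-215, and that of miR-215 held 3 that do not pair with miR-192-5p, of which 1 lies beyond the end of miR-192-5p. Both miRs can therefore be read apart only as far as these mismatches lower binding, which the files do not test. The longer probe of miR-194-5p (tccacatggagttgct) pairs equally with the product of both miR-194 genes.

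On rn4, the build of the array annotation, the longer probe of miR-194-5p was placed at chr1:209040091-209040106 and at chr13:101312467-101312482, and that of miR-192-5p at chr1:209040282-209040299. The probes of miR-194-3p (chr1:209040127-209040141) and miR-192-3p (chr1:209040328-209040343) lay in the same stretch of chromosome 1, and those of miR-215 were unmapped. The annotation gives no strand, and for the 3 members placed on chromosome 1 alone its stretch was 1 base shorter than the probe. In the RefSeq gene table (GRCr8), Mir194-2 and Mir192 were neighbours on chromosome 1 with 0 genes between them. Mir194-1 and Mir215 were neighbours on chromosome 13 and both lay within the span of Iars2, the gene of the mitochondrial isoleucyl-tRNA synthetase. The table does not give exons, so whether they lie in an intron was not read.

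The arrays differed in overall brightness, which was summarised as the 75th percentile of processed intensity among the 117 miRs that every one of the 24 arrays showed well above background. It lay between 596 and 1003 on the 24h_Cyt arrays, between 487 and 571 on the 24h_Giv_Cyt arrays and between 271 and 347 on the 24h_Ctrl arrays. The arrays came from 4 slides, and 1 slide held 2 of the 24h_Cyt arrays and 1 of the 6h_Giv_Ctrl arrays. This slide had another scan day than the other slides and another tag in its scanner file names. That tag is called the project label here, and what it stands for is not stated. No slide held both 24h_Cyt and 24h_Ctrl arrays. Within groups, arrays correlated across miRs at r = 0.984 or more, except for replicate 1 of 6h_Giv_Ctrl (lowest r = 0.958) and replicate 3 of 6h_Giv_Cyt (lowest r = 0.970). The cells carried the β-cell miRs miR-375-3p and miR-7a-5p well above background on all 24 arrays. Of 10 miRs fixed as markers of hepatocytes, acinar cells, leukocytes, erythroid cells and muscle, 8 were well above background on no array, miR-1-3p was so on 3 arrays and miR-206-3p on 24.

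miR-192-5p and miR-194-5p were the 2 members with a measurable level: all 16 spots of each were well above background on all 24 arrays. In the quantile-normalized log2 signal, miR-192-5p lay between 7.90 and 8.99 and miR-194-5p between 7.73 and 8.34. No level is compared between them, since probes differ in how strongly they bind. The other members gave little or no signal. miR-194-3p had 0 of its 384 spots well above background and miR-192-3p had 2 of 384. miR-215 had all 16 spots well above background on 1 array, of 24h_Giv_Cyt, and at most 6 spots on each of the other arrays, where its log2 signal of 5.73 to 6.06 is not well above background. miR-192-3p and miR-194-3p are the strands opposite to miR-192-5p and miR-194-5p in their hairpins. For these 3 members no fold is read, and none of them was called in any comparison by the main test on quantile-normalized array means. Without normalization between arrays, miR-192-3p and miR-215 passed the threshold in 24h_Giv_Cyt against 24h_Giv_Ctrl (limma adjusted p = 0.0342 and 0.0348). In that setting and comparison 42.6% of all miRs were called.

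**Figure D1:**
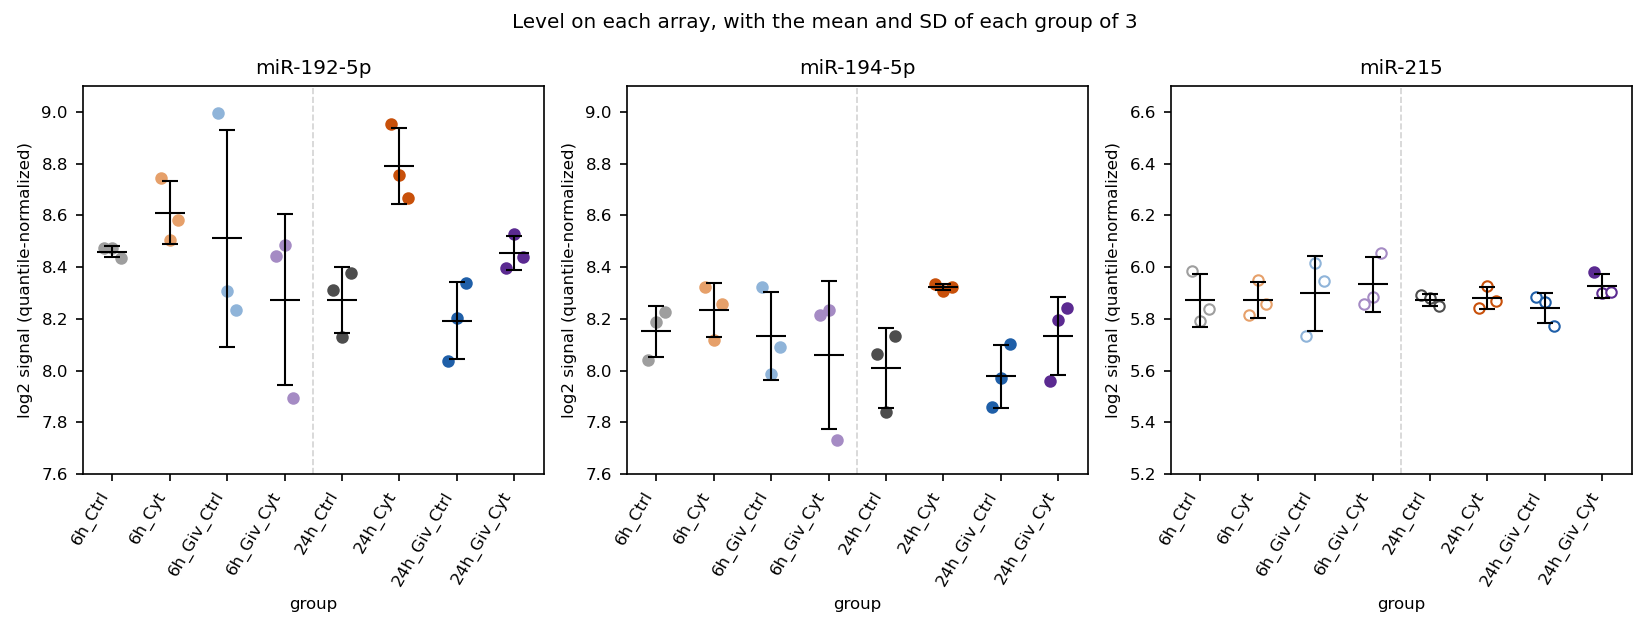
Quantile-normalized log2 signal of miR-192-5p, miR-194-5p and miR-215 (vertical axes) on each array of the 8 groups (horizontal axes). Points are arrays, filled where at least 8 of the 16 spots were well above background, and bars give the mean and SD of 3 arrays. The 3 arrays of 24h_Cyt lie above those of 24h_Ctrl for miR-192-5p and miR-194-5p, and miR-215 is filled on 1 array.

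The cytokine comparison at 24 h gave the largest difference of miR-192-5p among the 12 comparisons. Its log2 signal was 8.31, 8.13 and 8.38 in 24h_Ctrl and 8.95, 8.76 and 8.67 in 24h_Cyt. The lowest 24h_Cyt array lay above the highest 24h_Ctrl array, so the groups did not overlap. The log2FC was 0.52 (SE 0.17, 95% confidence interval 0.17 to 0.87, n = 3 against 3 arrays), a fold of 1.43, and limma on the array means gave an unadjusted p of 0.00615 and an adjusted p of 0.0716. miR-192-5p thus missed the threshold of an adjusted p below 0.05. In bulk RNA, more copies per cell and more cells that carry the miR cannot be told apart.

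miR-194-5p showed a smaller difference in the same direction. Its log2 signal was 8.06, 7.84 and 8.13 in 24h_Ctrl and 8.34, 8.31 and 8.32 in 24h_Cyt, and these groups did not overlap either. The 24h_Cyt arrays were close to each other (SD 0.013), while the 24h_Ctrl arrays were spread more widely (SD 0.15). The log2FC was 0.31 (SE 0.12, 95% confidence interval 0.056 to 0.57), a fold of 1.24, with an adjusted p of 0.130 in limma.

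In this comparison 0 of the 5 members were called, against 4.09% of all miRs on the array, and 2 of 5 had an unadjusted p below 0.05, against 23.7% of all. The 24h_Cyt arrays lay entirely above the 24h_Ctrl arrays for 16.4% of all miRs and for 24.8% of the 117 detected miRs. The log2FC of miR-192-5p was above that of 94.9% of these 117 miRs and that of miR-194-5p above 85.5%, where the median was -0.055. When the spots were fitted together with a pooled correlation, miR-192-5p was called (adjusted p = 0.0231, with 6.33% of all miRs called) and miR-194-5p was not (adjusted p = 0.355). With the median of the spots the limma adjusted p was 0.231 for miR-192-5p and 0.205 for miR-194-5p. With processed intensity scaled to the 75th percentile of all miRs it was 0.436 and 0.544. Scaled to that of detected miRs it was 0.0323 and 0.0235, with 9.1% of all miRs called. By probe, the difference in the main fit was 0.54 and 0.49 for miR-192-5p, whose probes pair with bases 3 to 21 and 4 to 21. It was 0.37 and 0.25 for miR-194-5p, whose probes pair with bases 7 to 22 and 8 to 22. The probes of a miR thus largely overlap and read the same RNA, so their agreement is no separate support for the difference.

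**Figure D2:**
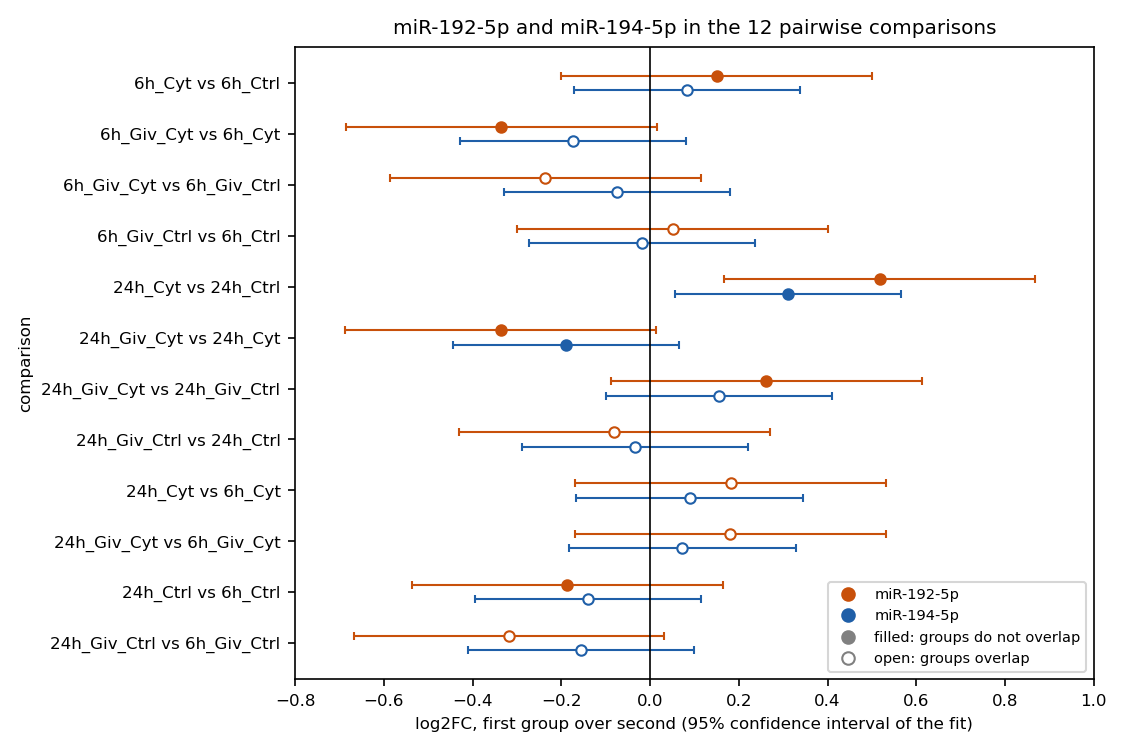
log2FC of miR-192-5p and miR-194-5p (horizontal axis) in the 12 pairwise comparisons (vertical axis), with the 95% confidence interval of the limma fit on 24 arrays. Points are filled where the 3 arrays of one group all lie above or below those of the other, and the intervals leave out 0 in 24h_Cyt against 24h_Ctrl alone.

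The levels of both miRs moved with the brightness of the arrays, and the 24h_Cyt arrays were the brightest group. Over the 24 arrays, which share 1 normalization, the log2 signal of miR-192-5p had r = 0.74 with log2 brightness, and r = 0.78 after the group means were taken out. For miR-194-5p these values were 0.53 and 0.38. With log2 brightness added to the fit, which was decided once the data had been seen, the log2FC of miR-192-5p in 24h_Cyt against 24h_Ctrl turned from 0.52 to -0.16 (limma adjusted p = 0.648) and that of miR-194-5p went from 0.31 to 0.069 (adjusted p = 0.882). These r values and this fit include replicate 1 of 6h_Giv_Ctrl (brightness 682, miR-192-5p 8.99) and replicate 3 of 6h_Giv_Cyt (317 and 7.90). Both arrays correlated least with their groups, and how far the turned sign rests on them was not tested. Brightness and the cytokine treatment at 24 h cannot be told apart here, since no 24h_Cyt array was as dim as a 24h_Ctrl array. Without normalization between arrays the log2FC was 1.55 for miR-192-5p and 1.36 for miR-194-5p, where the median of the 117 detected miRs was 0.83.

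**Figure D3:**
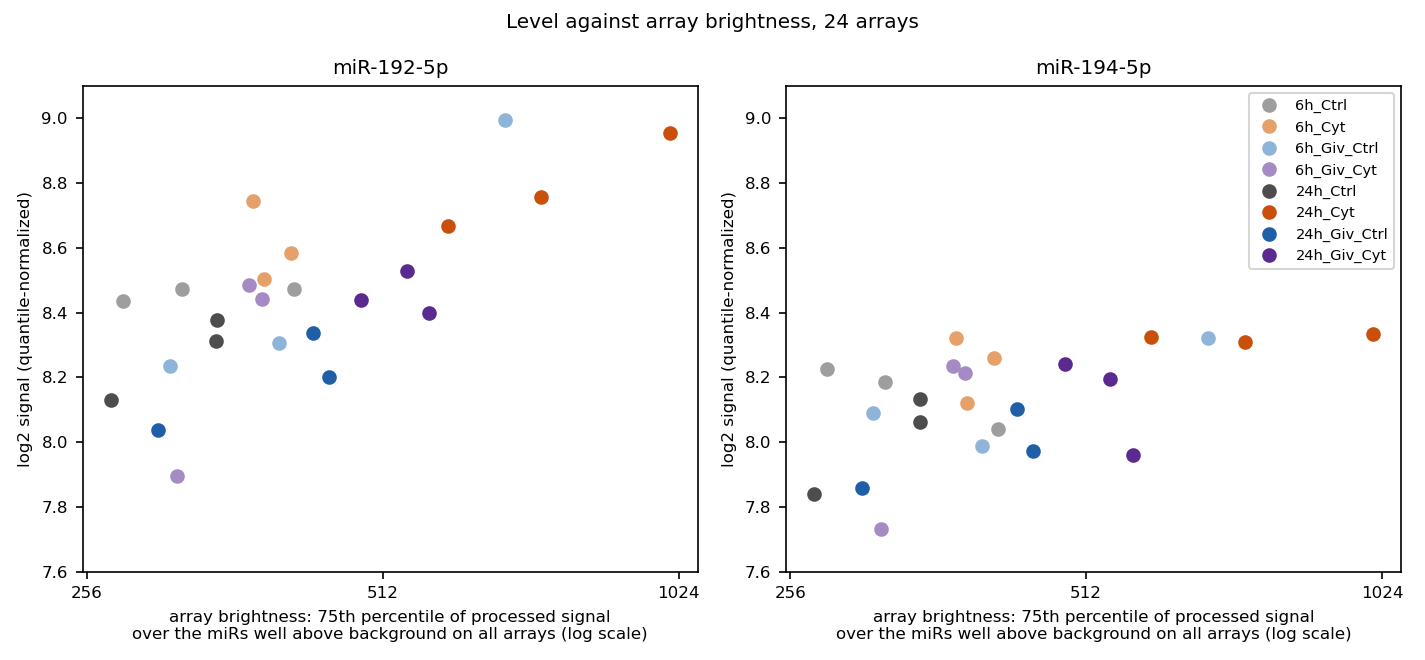
Quantile-normalized log2 signal of miR-192-5p (left) and miR-194-5p (right) against array brightness on a log scale, the 75th percentile of processed intensity over 117 miRs, for 24 arrays coloured by group. The 24h_Cyt arrays lie at 596 to 1003, and the brightest 6h_Giv_Ctrl array, at 682, has a miR-192-5p signal of 8.99.

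The slides could not be balanced for this comparison. With the slide as a fixed block the log2FC was 0.41 for miR-192-5p (limma adjusted p = 0.747) and 0.35 for miR-194-5p (adjusted p = 0.758), and without the slide of the other project label it was 0.40 (adjusted p = 0.439) and 0.30 (adjusted p = 0.623), with 1 array of 24h_Cyt left. The call on miR-192-5p also depended on arrays that are not in the comparison, which share the normalization and the estimate of spread. Its limma adjusted p was 0.0128 without replicate 1 of 6h_Giv_Ctrl (5.8% of all miRs called), 0.0384 without replicate 3 of 6h_Giv_Cyt (4.62%), and 0.000611 without both, when miR-194-5p had an adjusted p of 0.0277 and 7.26% of all miRs were called. These arrays correlated least with their groups across all miRs and also held the highest (8.99) and the lowest (7.90) miR-192-5p signal of the series, so leaving them out lowers the spread of this miR by construction. With the 24h_Ctrl and 24h_Cyt arrays fitted alone, the adjusted p was 0.0270 for miR-192-5p and 0.0563 for miR-194-5p, with 5.94% of all miRs called.

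**Figure D4:**
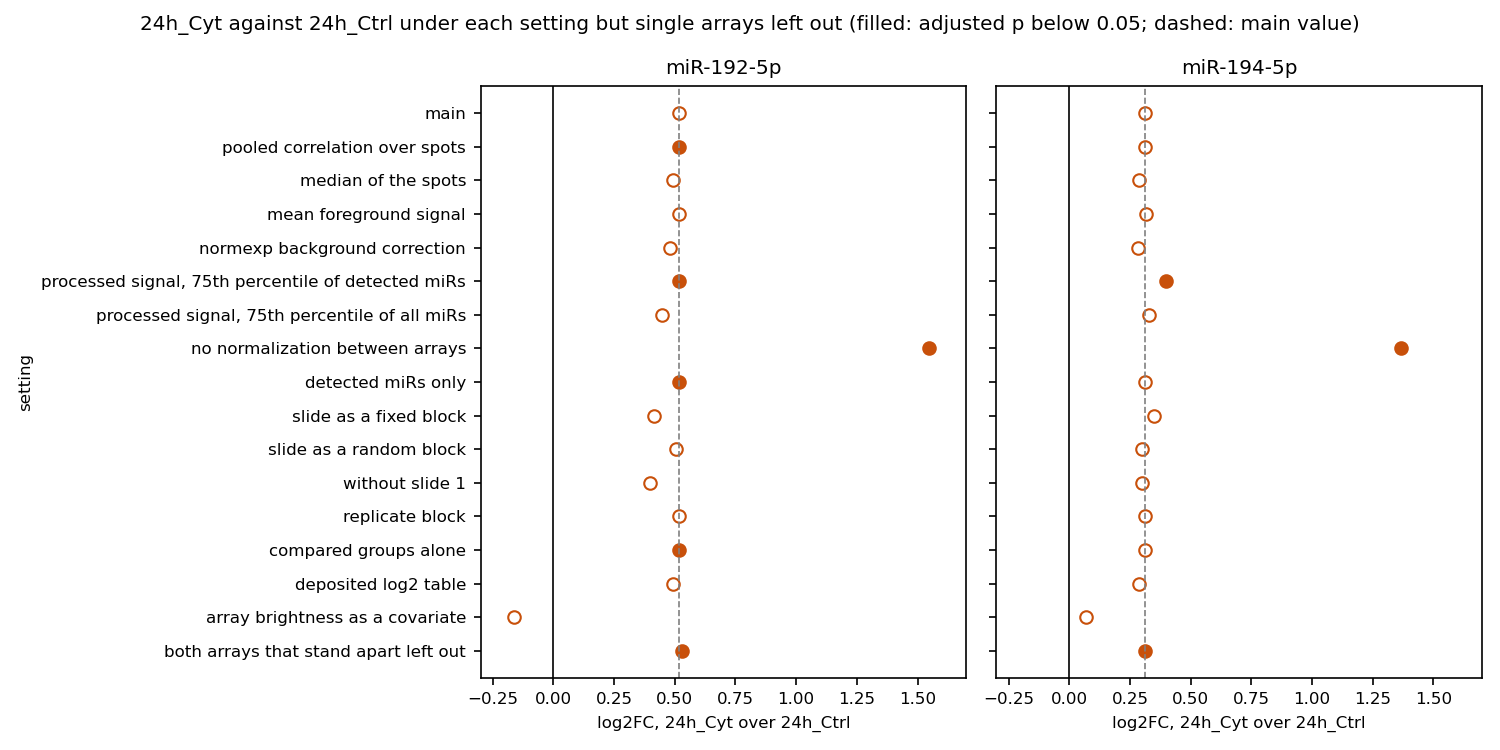
log2FC of miR-192-5p (left) and miR-194-5p (right) in 24h_Cyt against 24h_Ctrl (horizontal axes) under each setting of the processing or the fit (vertical axis), apart from those that leave out 1 array. Filled points have an adjusted p below 0.05 and the dashed line is the main value. The plotted values lie between 0.40 and 0.53 for miR-192-5p, except 1.55 without normalization and -0.16 with array brightness as a covariate.

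At 6 h the cytokine difference was smaller. miR-192-5p read 8.47, 8.47 and 8.44 in 6h_Ctrl and 8.74, 8.50 and 8.58 in 6h_Cyt. The groups did not overlap, as for 2.24% of all miRs, with a log2FC of 0.15 (95% confidence interval -0.20 to 0.50, limma adjusted p = 0.999). On the slide that held arrays of both groups the difference was 0.084, with 2 against 3 arrays. miR-194-5p read 8.04, 8.19 and 8.23 in 6h_Ctrl and 8.32, 8.12 and 8.26 in 6h_Cyt, with overlapping groups and a log2FC of 0.082 (adjusted p = 0.999). The difference between the cytokine effects at 24 h and at 6 h was 0.37 for miR-192-5p (95% confidence interval -0.13 to 0.86, adjusted p = 0.764, with 0.528% of all miRs called) and 0.23 for miR-194-5p (-0.13 to 0.59, adjusted p = 0.779), so the effects were not shown to differ between the times. At 6 h 0 of the 5 members and 0% of all miRs were called in any comparison by limma on array means. With the pooled correlation over spots 0 members were called either, but 0.264% of all miRs were called in 6h_Cyt against 6h_Ctrl. That share was 2.77% in 6h_Giv_Cyt against 6h_Cyt, 0.66% in 6h_Giv_Ctrl against 6h_Ctrl and 0% in 6h_Giv_Cyt against 6h_Giv_Ctrl.

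Givinostat before cytokines gave lower values of both miRs than cytokines alone. At 24 h miR-192-5p read 8.40, 8.53 and 8.44 in 24h_Giv_Cyt, below all 3 arrays of 24h_Cyt. The log2FC of 24h_Giv_Cyt against 24h_Cyt was -0.34 (95% confidence interval -0.69 to 0.014, limma adjusted p = 0.945), the lowest of the 117 detected miRs. miR-194-5p read 7.96, 8.20 and 8.24 in 24h_Giv_Cyt, again below all 3 arrays of 24h_Cyt, with a log2FC of -0.19 (-0.44 to 0.065, adjusted p = 0.967). The first group lay entirely below the second for 10.3% of all miRs here, and 0.132% of miRs were called. With the pooled correlation over spots 3.17% were called, and 0 of the 5 members. The 24h_Giv_Cyt arrays were also dimmer than the 24h_Cyt arrays. With brightness as a covariate the log2FC was -0.055 for miR-192-5p and -0.090 for miR-194-5p, and no slide held arrays of both groups.

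Set against Givinostat alone, the cytokines again went with higher values at 24 h. 24h_Giv_Ctrl read 8.04, 8.20 and 8.34 for miR-192-5p, below all 3 arrays of 24h_Giv_Cyt, as in 8.31% of all miRs. The log2FC was 0.26 (95% confidence interval -0.088 to 0.61, limma adjusted p = 0.503), and 0.528% of all miRs were called. With the pooled correlation over spots 5.67% were called, and 0 of the 5 members. The log2FC was 0.17 on the slide with 1 against 2 arrays and 0.42 on the slide with 2 against 1. For miR-194-5p, which read 7.86, 7.97 and 8.10 in 24h_Giv_Ctrl, the groups overlapped, the log2FC was 0.16 (adjusted p = 0.588), and the values within these slides were 0.20 and 0.22. With processed intensity set to 1 common 75th percentile of detected miRs, both miRs were called in this comparison (adjusted p = 0.0330 and 0.0314, with 3.03% of all miRs called), while scaling to the percentile of all miRs turned the values to -0.16 and -0.26. With brightness as a covariate the log2FC was 0.019 and 0.069. The cytokine effect with minus without Givinostat at 24 h was -0.26 for miR-192-5p (-0.75 to 0.24, adjusted p = 0.951) and -0.16 for miR-194-5p (-0.52 to 0.20, adjusted p = 0.951), so a difference in the cytokine effect was not shown. These comparisons share the 24h_Cyt and 24h_Giv_Cyt arrays and are not independent of each other.

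Givinostat alone was read against cells without it. At 24 h the log2FC of 24h_Giv_Ctrl against 24h_Ctrl was -0.081 for miR-192-5p (95% confidence interval -0.43 to 0.27, limma adjusted p = 0.992) and -0.034 for miR-194-5p (-0.29 to 0.22, adjusted p = 0.992), and the groups overlapped. On the slide with 1 against 3 arrays these were -0.23 and -0.15. At 6 h miR-192-5p read 8.99, 8.31 and 8.23 in 6h_Giv_Ctrl, where the high array is the one on the slide of the other project label. The log2FC against 6h_Ctrl was 0.051 (adjusted p = 0.981) with that array and -0.19 (adjusted p = 0.501) without it. With that array kept, it also turned to -0.13 with the median of the spots and -0.10 with the slide as a fixed block. The direction thus depended on that array and on the processing. miR-194-5p read 8.32, 7.99 and 8.09 in 6h_Giv_Ctrl, with the same array highest and a log2FC of -0.018 (adjusted p = 0.994).

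Replicate 3 of 6h_Giv_Cyt held the lowest signal of both miRs in the series. In this group miR-192-5p read 8.44, 8.49 and 7.90 and miR-194-5p read 8.21, 8.24 and 7.73, with replicate 3 far below the others for both. Against 6h_Cyt the log2FC was -0.34 for miR-192-5p (95% confidence interval -0.69 to 0.015, limma adjusted p = 0.926), with groups that did not overlap, as for 5.54% of all miRs. It was -0.17 for miR-194-5p (adjusted p = 0.926), with overlap. Without replicate 3 these values were -0.15 and -0.0092. Against 6h_Giv_Ctrl the log2FC was -0.24 and -0.074 (adjusted p = 0.998 for both), and it became 0.20 and 0.18 without the 2 arrays that stood apart. No slide held arrays of both groups in either comparison.

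Time in culture was compared within each treatment. In untreated cells miR-192-5p was lower at 24 h than at 6 h on all arrays, as for 4.75% of all miRs, with a log2FC of -0.19 (95% confidence interval -0.54 to 0.16, limma adjusted p = 0.995). miR-194-5p had a log2FC of -0.14 (adjusted p = 0.995) with overlapping groups, and no slide held arrays of both times. In Cyt cells the log2FC of 24 h against 6 h was 0.18 for miR-192-5p (adjusted p = 0.747) and 0.089 for miR-194-5p (adjusted p = 0.857). On the slide with 1 against 2 arrays these were 0.12 and 0.13. In Giv_Cyt cells it was 0.18 and 0.073, and in Giv_Ctrl cells -0.32 and -0.16, with adjusted p between 0.938 and 1.00 and overlapping groups. Without replicate 1 of 6h_Giv_Ctrl, the high array, the values in Giv_Ctrl cells were -0.076 and -0.061. The share of all miRs called was 0.792% in Cyt cells, 0.396% in Giv_Cyt cells and 0% in the others, and 0 of the 5 members were called. With the pooled correlation over spots the share was 2.37% in Cyt, 1.85% in Giv_Cyt, 0.66% in untreated and 0.264% in Giv_Ctrl cells, again with 0 members.

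The order of the 8 groups was alike for both miRs. For miR-192-5p the group means ran from 8.79 ± 0.15 in 24h_Cyt and 8.61 ± 0.12 in 6h_Cyt through 8.51 ± 0.42 in 6h_Giv_Ctrl, 8.46 ± 0.020 in 6h_Ctrl, 8.46 ± 0.066 in 24h_Giv_Cyt, 8.27 ± 0.33 in 6h_Giv_Cyt and 8.27 ± 0.13 in 24h_Ctrl to 8.19 ± 0.15 in 24h_Giv_Ctrl (SD, n = 3 arrays). For miR-194-5p they ran from 8.32 ± 0.013 in 24h_Cyt and 8.23 ± 0.10 in 6h_Cyt through 8.15 ± 0.097 in 6h_Ctrl, 8.13 ± 0.17 in 6h_Giv_Ctrl, 8.13 ± 0.15 in 24h_Giv_Cyt, 8.06 ± 0.29 in 6h_Giv_Cyt and 8.01 ± 0.15 in 24h_Ctrl to 7.98 ± 0.12 in 24h_Giv_Ctrl. Both orders begin with the Cyt groups and end with the 24 h groups without cytokines. The ranges of every pair of neighbours overlapped, for each miR. In the F test of any difference among the 8 groups, limma gave an adjusted p of 0.282 for miR-192-5p (unadjusted p = 0.0367) and 0.541 for miR-194-5p. By this test 0 of the 5 members passed, against 2.77% of all miRs. With the pooled correlation over spots miR-192-5p passed (adjusted p = 0.0392), where 19% of all miRs did.

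miR-192-5p and miR-194-5p varied together from array to array. Pearson's r between them was 0.89 over the 24 arrays and 0.82 after the group means were taken out, and it was 0.92 in the processed intensity. The arrays share brightness and 1 normalization, and 6.37% of all pairs among the 117 detected miRs had a higher r, against a median r of 0.016. After the group means were taken out, miR-215 had r = -0.80 with miR-192-5p and -0.84 with miR-194-5p. Since miR-215 gave little or no signal, a strong r here need not reflect shared levels of 2 miRs. The miRs most like miR-192-5p over the 24 arrays were miR-384-5p (r = 0.91), miR-194-5p (0.89) and miR-598-3p (0.87). Those most like miR-194-5p were miR-340-5p (r = 0.90), miR-192-5p (0.89) and miR-153-3p (0.87). Each member was thus the second most alike of 116 to the other. The probe pair of 1 miR correlated at r = 0.97 for miR-192-5p and 0.91 for miR-194-5p.

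**Figure D5:**
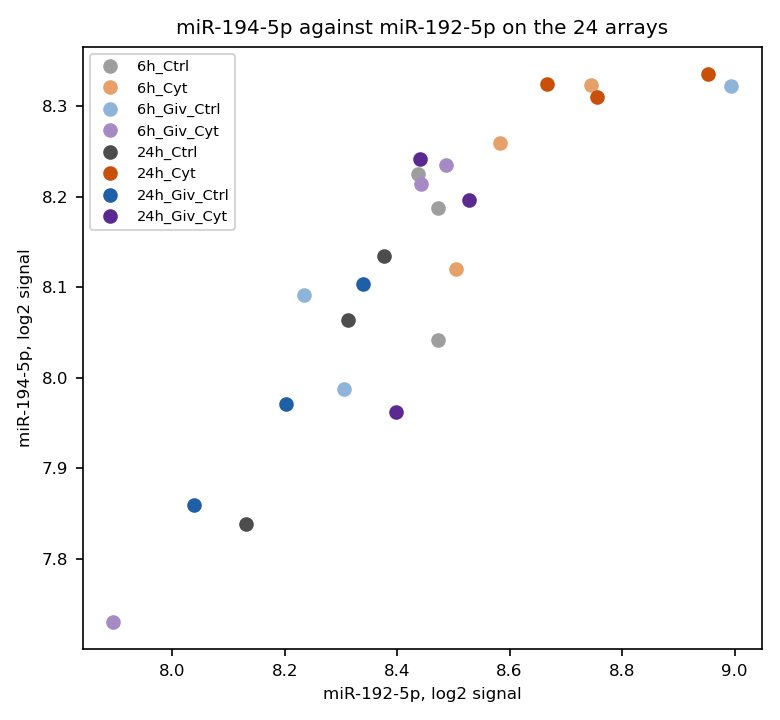
Quantile-normalized log2 signal of miR-194-5p (vertical axis) against miR-192-5p (horizontal axis) on 24 arrays, coloured by group. The points rise together (r = 0.89), and replicate 3 of 6h_Giv_Cyt is lowest on both axes, at 7.90 and 7.73.

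miRs that share a link to p53 or to epithelial cells were read beside the members. Of 10 p53-linked miRs, 4 (miR-16-5p, miR-107-3p, miR-200c-3p and miR-141-3p) were well above background on all arrays, while miR-34a-5p, the best known p53 target among miRs, was so on 0 arrays. None of the 10 was called in any of the 12 comparisons. In 24h_Cyt against 24h_Ctrl the median log2FC of the 4 detected miRs was 0.0099, and 2 of 4 were higher. Of 8 epithelial miRs, 3 (miR-200c-3p, miR-141-3p and miR-375-3p) were detected on all arrays, with a median log2FC of -0.081 in this comparison and 1 of 3 higher. One of the 8, miR-203a-3p, a miR of stratified epithelium, was called higher in 24h_Cyt by limma, with a difference in measured signal of 0.27 (adjusted p = 0.00364). It was well above background on 2 of 24 arrays, so no fold is read from it. Among the 10 marker miRs, the leukocyte miR miR-223-3p was called lower by limma in 24h_Cyt against 24h_Ctrl, with a difference in measured signal of -0.24 (adjusted p = 0.0175), and in 24h_Cyt against 6h_Cyt, with -0.25 (adjusted p = 0.0494). It was well above background on 0 arrays, and no fold is read from it either.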

How the data were processed

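Per the file headers, the authors' scanner files were written by Agilent Feature Extraction 10.7.3.1 (the submitters' processing notes name version 9.1), and hold the intensity of each spot on a linear scale with probe positions on rn4. The deposited log2 table equals the median of a miR's 16 quantile-normalized spots (median difference 2.63e-10). As in the study's methods, median foreground intensity without background correction was quantile-normalized over the 12128 miR spots and log2 was taken, and 434 negative and 281 positive control spots were left out. The 16 spots of a miR were then averaged per array, and limma 3.58.1 in R 4.3.3 (lmFit, eBayes) was fitted to all 24 arrays and 758 miRs with a mean for each group (16 residual degrees of freedom). This departs from the methods, which fit the spots with a pooled correlation (0.0373 here): the spots of an array share its RNA. The thresholds for a call were those of the methods, log2FC beyond 0.1375 in either direction with a Benjamini-Hochberg adjusted p below 0.05, within each of 12 comparisons and 3 interaction terms.

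The scanner marks spots that are well above background, and 8 or more of 16 marked spots made a miR count as such. Here "detected" means so on all 24 arrays. No miR spot was saturated. Precision is limited by 3 arrays per group. Named were all members, the 3 detected miRs most like each detected member by Pearson's r, and list miRs that were called. Members, lists and tests were chosen with earlier results of these data known. On simulated data of 24h_Cyt against 24h_Ctrl, with 758 miRs, the test recovered 99% of 100 changes of 1 on the log2 scale. It recovered 95% of 100 changes of 0.5 and called 2 unchanged miRs. In the measured data the log2FC of miR-192-5p in this comparison, 0.52 with an SE of 0.17, was not called. The SE was only 0.032 for miR-192-3p and 0.066 for miR-215. The simulated rates therefore do not tell how often such a change of miR-192-5p or miR-194-5p would be called. Python 3.11.15 and matplotlib 3.10.9 drew the plots.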

Additional observations from a re-analysis of the deposited data

How the results depend on the processing

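In 10 of the 15 comparisons and interaction terms, the count of 0 members called was the same under all 41 alternatives. In 24h_Cyt against 24h_Ctrl it was 1 with the pooled correlation over spots, 1 with only the 168 miRs detected on all arrays of a group (17.3% of them called), 1 with the compared groups alone, 2 with the processed intensity scaled to the 75th percentile of detected miRs (9.1% of all miRs called), 2 without normalization between arrays (22.8%), 2 without both arrays that stand apart, and 0 to 1 when each array was left out in turn. Without normalization it was 2 in 24h_Cyt against 6h_Cyt (16.1% of all miRs called), 4 in 24h_Giv_Cyt against 24h_Giv_Ctrl (42.6%) and 1 in the cytokine effect at 24 h minus at 6 h (6.73%). With the scaled processed intensity it was 2 in 24h_Giv_Cyt against 24h_Giv_Ctrl and, through a lower miR-194-5p, 1 in 24h_Giv_Ctrl against 6h_Giv_Ctrl (3.43% of all). In the F test it was 1 with the pooled correlation, 2 with the scaled processed intensity (60.2% of all miRs passed), 2 without normalization (15.8%), 1 without both arrays that stand apart (7.52%) and 0 to 1 with each array left out (1 without replicate 1 of 6h_Giv_Ctrl, where 5.01% passed), and the compared groups alone give no such test. The causes of these changes were not tested, beyond the smaller number of miRs or arrays that some alternatives hold by construction.

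Signs turned as follows, with no member called at a turned sign. With array brightness as a covariate, miR-192-5p became -0.16 (24h_Cyt against 24h_Ctrl), -0.34 (24h_Cyt against 6h_Cyt), -0.13 (24h_Giv_Cyt against 6h_Giv_Cyt), -0.17 (6h_Giv_Ctrl against 6h_Ctrl), -0.19 (cytokine effect at 24 h minus at 6 h) and 0.18 (cytokine effect with minus without Givinostat, 24 h), and miR-194-5p became -0.096 (24h_Cyt against 6h_Cyt), -0.037 (24h_Giv_Cyt against 6h_Giv_Cyt) and 0.00017 (with minus without Givinostat, 24 h). Without both arrays that stand apart, the values of miR-192-5p and miR-194-5p were -0.0091 and -0.090 (24h_Giv_Cyt against 6h_Giv_Cyt), 0.20 and 0.18 (6h_Giv_Cyt against 6h_Giv_Ctrl), and 0.042 and 0.0999 (with minus without Givinostat, 6 h), and miR-192-5p was -0.19 in 6h_Giv_Ctrl against 6h_Ctrl. These 2 alternatives were chosen after the data were seen. With the processed intensity scaled to all miRs, the 2 miRs were -0.16 and -0.26 (24h_Giv_Cyt against 24h_Giv_Ctrl) and -0.083 and -0.16 (24h_Giv_Cyt against 6h_Giv_Cyt), miR-192-5p was -0.13 in 6h_Giv_Ctrl against 6h_Ctrl, and miR-194-5p was 0.083 in 24h_Giv_Ctrl against 24h_Ctrl and -0.011 in 6h_Cyt against 6h_Ctrl. Without normalization, miR-192-5p was 0.063 and miR-194-5p 0.15 in 24h_Giv_Ctrl against 24h_Ctrl, and miR-194-5p was 0.28 in 6h_Giv_Ctrl against 6h_Ctrl. In the last comparison miR-192-5p was -0.10 with the processed intensity scaled to detected miRs, -0.13 with the median of the spots and with the deposited log2 table, -0.10 with the slide as a fixed block and -0.18 without slide 1. Slide as a block gave -0.056 for miR-192-5p in 24h_Cyt against 6h_Cyt, and in 6h_Giv_Cyt against 6h_Giv_Ctrl the values without slide 1 were 0.0060 and 0.019, and miR-194-5p was 0.0075 with the scaled processed intensity.

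With each array left out in turn, miR-192-5p ranged from -0.0094 to 0.29 (24h_Giv_Cyt against 6h_Giv_Cyt), -0.19 to 0.19 (6h_Giv_Ctrl against 6h_Ctrl) and -0.38 to 0.0070 (6h_Giv_Cyt against 6h_Giv_Ctrl). miR-194-5p ranged from -0.12 to 0.027 (24h_Giv_Ctrl against 24h_Ctrl), -0.092 to 0.16 (24h_Giv_Cyt against 6h_Giv_Cyt), -0.11 to 0.056 (6h_Giv_Ctrl against 6h_Ctrl), -0.16 to 0.092 (6h_Giv_Cyt against 6h_Giv_Ctrl) and -0.24 to 0.0084 (with minus without Givinostat, 6 h). In 24h_Cyt against 24h_Ctrl the range was 0.44 to 0.58 for miR-192-5p and 0.22 to 0.37 for miR-194-5p.

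Deviations of same-numbered arrays of different groups had r from -0.94 to 0.97. The median r was -0.56 for number 1, -0.45 for number 2 and 0.21 for number 3. This gave no sign that the numbers pair the arrays but cannot exclude it. With the replicate block 0 members were called in any comparison, and miR-192-5p had an adjusted p of 0.0687 in 24h_Cyt against 24h_Ctrl.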
